A study of Mus musculus with 16 samples.

Results

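CAR (gene Nr1i3) and PXR (gene Nr1i2), the liver's 2 receptors for foreign chemicals, were followed together with 5 genes of the response they control, in mouse livers with and without Zfp36l1 and on diets with and without ethanol. The 7 genes were the rows of the deposited expression table that carry the symbols Nr1i3, Nr1i2, Cyp2b10, Cyp2c55, Cyp3a11, Por and Alas1, out of 35275 gene IDs. All 7 were found, and all 7 were among the 11298 genes tested, which reached 1 FPKM in at least 4 of the 16 libraries. Cyp2c55 met that limit through its ethanol livers alone. Of these genes 1, Cyp2b10, rose on ethanol in both genotypes. Its mean increased 237-fold in livers with Zfp36l1 and 135-fold in livers without it, and the first was 156-fold without WT ethanol liver 1, the highest of its group. Neither receptor transcript rose on ethanol.

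The 4 groups, with 4 livers each, were WT mice on the control diet, WT mice on the ethanol-containing diet, and liver-specific Zfp36l1 knockout mice (L1 LKO, here LKO) on either diet. ZFP36L1 is a protein that binds AU-rich stretches in messenger RNA and speeds the decay of the transcript. The allele and the promoter of the recombinase, the age, sex and strain of the mice, and the composition and length of the diets are not given in the sources used here. Livers are numbered 1 to 4 within a group, a name only.

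CAR and PXR are nuclear receptors of the hepatocyte that sense drugs, plant toxins and bile acids. On activation, CAR leaves a chaperone complex in the cytoplasm and enters the nucleus, where either receptor pairs with RXR on DNA at repeats of a short half-site related to AGGTCA. The genes they turn on encode oxidising P450 enzymes, conjugating enzymes and export pumps. P450 enzymes need electrons from the reductase POR and a heme group, whose synthesis starts with the enzyme ALAS1.

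Levels are FPKM, read fragments scaled to gene length and to library size, so that they can be set side by side between genes. Changes are differences of log2(FPKM + 1) from a limma fit to all 16 libraries, with its standard error as SE, and they understate the fold of genes with low FPKM. A gene is called changed at an adjusted p under 0.05, with Benjamini-Hochberg adjustment over the 11298 genes tested. Ethanol in WT called 2.58% of these genes higher and 1.59% lower, and ethanol in LKO 0.168% higher and 0.257% lower. The comparison of genotypes called 0.00885% under the control diet and 0.0797% under ethanol, and the interaction, the response in LKO minus that in WT, called 0.0%. The labels do not state whether each library came from a separate mouse, so the p-values measure only the spread between these libraries, here called livers. In RNA of whole liver, fewer cells of a type and less RNA per cell cannot be told apart. Contrasts that use the same group of livers are not independent of each other.

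Zfp36l1 itself was 12.7-fold lower in mean in LKO than in WT on the control diet and 14.6-fold lower on ethanol, and the WT and LKO livers did not overlap. Liver 2 of the WT ethanol group stood apart. It had 9890475 reads against at least 19069903 in the 15 others, and 22.5% of them were mitochondrial against at most 6.97%. A list of 6 erythroid marker genes summed to 2160 FPKM there against at most 286.1 in the others, 6 endothelial markers to 12.1 against at least 32.5, and 8 hepatocyte markers to 63470, within the range of 44080 to 76210. It alone held Y-linked Ddx3y at 1.43 FPKM, against at most 0.0448 in the others. Xist, transcribed from the X chromosome, was at 6.62 FPKM there against 13.74 to 49.37 in the others. Liver 4 of the LKO control group also differed: Sult2a1, predominant in females, was listed at 0, and Mup20, predominant in males, was at 411.1 against at most 105.7 in the others. Its Xist, at 24.98, was within the range of the others, and Y-linked Ddx3y, Kdm5d and Uty were at 0, so it was not marked as male by these genes. In every group, livers 1 and 2 lay on one side of the first component of variation within groups and livers 3 and 4 on the other. That component was taken from the 15 livers other than WT ethanol liver 2, which was placed on it afterwards. It carried 40% of their variance within groups. No label names a batch. Values without these livers are given beside several of the results they move. Leaving out WT ethanol liver 2 raised the share of all genes called on ethanol to 9.48% in WT and 3.62% in LKO, and leaving out LKO control liver 4 gave 3.40% and 0.0974%.

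**Figure D1:**
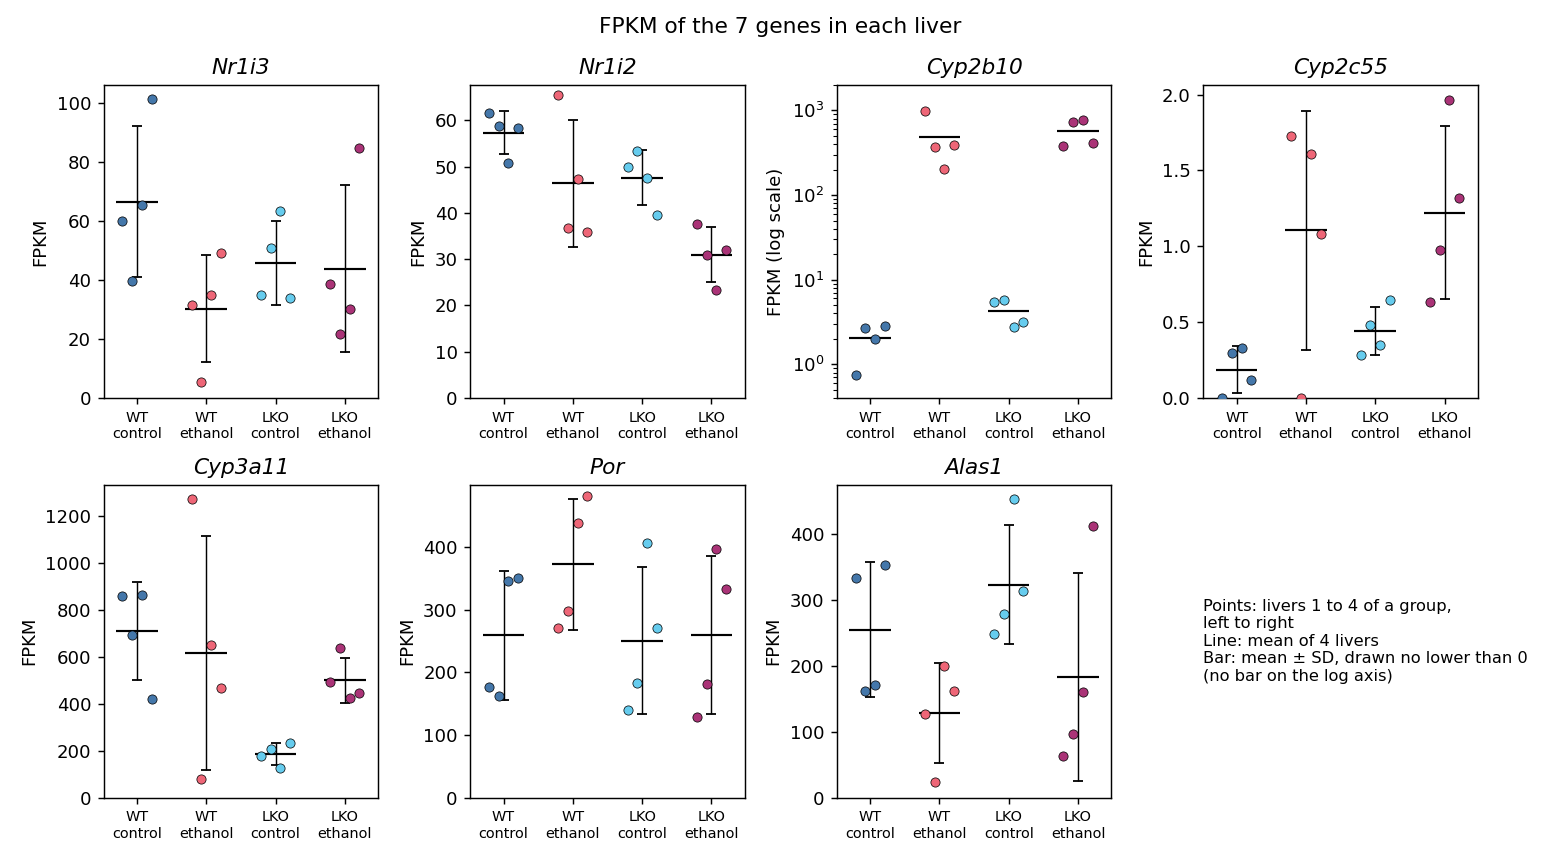
FPKM of each of the 7 genes (y axis, log scale for Cyp2b10) in the 4 groups (x axis). Points are livers 1 to 4 from left to right, lines are means of 4 livers and bars are SD. Cyp2b10 lies at 0.739 to 5.75 FPKM in the 8 control livers and at 203.9 to 990.7 in the 8 ethanol livers.

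Nr1i3 encodes CAR (ENSMUSG00000005677, GRCm38 chromosome 1, 171213970 to 171220701, plus strand, protein-coding). Its FPKM in livers 1 to 4 was 60.0, 39.6, 65.5 and 101.4 in WT controls and 31.6, 5.46, 35.0 and 49.2 in WT on ethanol. The LKO controls had 35.0, 51.0, 63.5 and 33.8, and the LKO livers under ethanol had 38.7, 21.7, 30.2 and 84.9. Every group overlapped every other, and the lowest value of the gene belonged to WT ethanol liver 2. The group means ran from WT control (66.6 ± 25.7 FPKM, SD, n = 4) through LKO control (45.9 ± 14.2) and LKO ethanol (43.9 ± 28.2) to WT ethanol (30.3 ± 18.3), and each neighbouring pair differed by less than the larger of its 2 SDs. Ethanol came with a change of −1.37 in WT (SE 0.539, adjusted p = 0.167) and −0.20 in LKO (adjusted p = 0.995), neither of which passed the test. The change in WT was −0.72 without WT ethanol liver 2, and that in LKO was −0.33 without LKO control liver 4.

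Nr1i2, which encodes PXR (ENSMUSG00000022809, chromosome 16, 38248323 to 38294824, minus strand, protein-coding), was the steadiest of the 7 genes in the WT controls. Its FPKM there was 61.5, 58.8, 50.8 and 58.3, with a mean of 57.3 ± 4.60 (SD, n = 4). The other groups had 65.5, 36.8, 47.2 and 35.9 (WT ethanol), 49.97, 53.4, 47.5 and 39.5 (LKO control), and 37.7, 31.0, 23.3 and 32.0 (LKO ethanol). LKO ethanol was the lowest group: its livers all lay under the LKO control livers, while they overlapped the WT ethanol livers. The change on ethanol was −0.61 in LKO (SE 0.243, unadjusted p = 0.0218, adjusted p = 0.413) and −0.34 in WT (adjusted p = 0.467; −0.25 without liver 2), and LKO lay 0.54 below WT on ethanol (unadjusted p = 0.0392, adjusted p = 0.397). The test did not call any of these differences. With livers weighted by their spread the change in LKO passed (adjusted p = 0.0193), as it did with a term for the split of livers 1 and 2 from 3 and 4 and without WT ethanol liver 2 (adjusted p = 0.0173). The genotype difference on ethanol also passed in these fits, at −0.58 (adjusted p = 0.0195) and −0.69 (adjusted p = 0.0463). The weighted fit called 7.69% of all genes on ethanol in LKO and 30.7% between genotypes on ethanol, and the other fit called 10.7% and 1.58%. The means ran from WT control through LKO control (47.6 ± 5.90) and WT ethanol (46.4 ± 13.8) to LKO ethanol (31.0 ± 5.91), and only the middle pair differed by less than the SD of both its groups.

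Cyp2b10 is the P450 that serves as the standard readout of CAR in mouse liver (ENSMUSG00000030483, chromosome 7, 25897620 to 25926624, plus strand, protein-coding). In the WT controls it measured 0.739, 2.71, 1.99 and 2.83 FPKM, from 27 to 124 reads. On ethanol the WT livers held 990.7, 373.1, 203.9 and 391.5 FPKM. The LKO controls held 5.41, 5.75, 2.77 and 3.14, and the LKO livers under ethanol held 377.7, 732.3, 779.7 and 413.7. Every ethanol liver was thus far above every control liver, with the lowest at 203.9 and the highest control at 5.75. Within a diet the genotypes overlapped, and the widest spread was in WT on ethanol, with liver 1 at the top and liver 3 at the bottom. The means ran from LKO ethanol through WT ethanol and LKO control to WT control, and only the 2 ethanol means differed by less than the SD of both groups. A list of 6 genes drawn up as intestinal markers summed to 130.6 to 400.2 FPKM in the control livers and 113.7 to 2871 in the ethanol livers. Apoa4 ran from 47.6 to 2718 FPKM and Fabp2 from 30.2 to 156.3, Cdx2 and Lct were at most 0.0364, and Vil1 was at most 0.356. Whether these values reflect RNA of another tissue was not tested, nor was their part in the rise of Cyp2b10.

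The rise of Cyp2b10 was 7.15 log2 units in WT (SE 0.423, adjusted p = 5.25e-08) and 6.75 in LKO (SE 0.423, adjusted p = 1.32e-07). It was called in both genotypes under every alternative run, with changes from 6.44 to 7.78 in WT and from 6.52 to 7.07 in LKO. On livers 1 and 2 it was 7.91 in WT (8.61 without liver 2) and 6.32 in LKO, and on livers 3 and 4 it was 6.39 and 7.17. The responses differed between the genotypes by −0.40 (95% interval −1.66 to 0.86, adjusted p = 0.928), which leaves room for a difference in either direction. On the control diet the LKO mean was 2.06-fold the WT mean, 4.27 ± 1.53 against 2.07 ± 0.961 FPKM (SD, n = 4 each), and this difference of 0.80 did not pass (unadjusted p = 0.0764, adjusted p = 1.0). On ethanol the group means were 575.9 ± 209.4 in LKO and 489.8 ± 344.4 in WT, a difference of 0.40 (adjusted p = 0.743). That difference was called in 1 alternative, with livers weighted by their spread, at 1.11 (adjusted p = 0.0329). In that fit WT ethanol liver 3, the lowest of its group, had a weight of 5 against 0.278, 0.0418 and 1.06 for livers 1, 2 and 4, and 30.7% of all genes were called.

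The closest relatives of Cyp2b10 were not called on ethanol in either genotype. The nearest by coding sequence was Cyp2b13, at 88.8% identity, whose means were 175.0 and 90.0 FPKM in WT on control diet and ethanol and 40.7 and 51.1 in LKO. Cyp2b9, at 87.8% identity, had means of 239.6, 168.2, 159.5 and 260.5 in the same order. How reads that fit several copies were counted is not stated, so reads shared between these genes remain a source of uncertainty in each level.

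The sequences just before the starts of Cyp2b10 and Cyp3a11 are shown because these genes have the largest ethanol response and the largest difference between genotypes among the 7. Each is the 250 bases before the RefSeq start on GRCm38.p6, 5′ to 3′ on the gene's strand. Capitals mark every match to the receptor half-sites AGGTCA and AGTTCA or to their complements TGACCT and TGAACT.
Cyp2b10: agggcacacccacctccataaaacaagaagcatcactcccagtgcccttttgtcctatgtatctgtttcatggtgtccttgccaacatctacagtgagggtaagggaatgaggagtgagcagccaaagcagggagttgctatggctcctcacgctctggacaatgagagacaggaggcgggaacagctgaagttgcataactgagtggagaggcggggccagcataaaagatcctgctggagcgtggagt
Cyp3a11: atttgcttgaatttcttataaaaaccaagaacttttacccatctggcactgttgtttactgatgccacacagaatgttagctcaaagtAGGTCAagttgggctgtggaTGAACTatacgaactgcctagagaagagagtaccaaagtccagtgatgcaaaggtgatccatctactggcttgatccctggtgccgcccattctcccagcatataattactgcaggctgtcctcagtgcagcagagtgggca
The Cyp2b10 stretch is chr7:25897408-25897657 on the plus strand and the Cyp3a11 stretch is chr5:145879855-145880104 on the minus strand. The Cyp3a11 stretch holds AGGTCA from 162 bases before the start and, nearer to the start and without overlap, TGAACT. The same letters were found in the stretches of 0 of the 6 other genes. Over all 32851 RefSeq promoters of this length, 14.02% held the first half-site or its complement, 11.84% held the second, and 24.16% held at least 1 of them. A match is a run of letters and not a measured binding site, and elements outside these 250 bases, such as the distal phenobarbital-responsive enhancer known for Cyp2b10, were not searched.

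Cyp3a11, the main drug-oxidising P450 of the mouse 3a family and the usual readout of PXR (ENSMUSG00000056035, chromosome 5, 145854426 to 145879964, minus strand, protein-coding), was abundant in all groups. The WT control livers measured 860.8, 693.4, 864.0 and 418.4 FPKM. Those of LKO on the same diet measured 177.2, 209.2, 127.9 and 233.0, so that the highest LKO liver lay below the lowest WT liver. On ethanol the WT livers held 1273, 79.3, 648.4 and 465.6 and the LKO livers 492.5, 636.2, 426.0 and 446.1. All LKO ethanol livers lay above all LKO control livers, whereas the WT ethanol livers spanned both other groups because liver 2 was the lowest and liver 1 the highest of all 16.

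On the control diet the LKO mean was 3.80-fold under the WT mean, 186.8 ± 45.5 against 709.1 ± 209.6 FPKM (SD, n = 4 each). The difference was −1.90 (SE 0.577, unadjusted p = 0.00434) with an adjusted p of 1.0, and it was not called. In LKO, ethanol came with a mean 2.68-fold higher, 500.2 ± 94.9 FPKM, a change of 1.43 (unadjusted p = 0.0237, adjusted p = 0.42) that was not called either. Both passed without WT ethanol liver 2, with unchanged sizes and adjusted p-values of 0.0364 and 0.02. That liver enters neither difference and acts through the spread that all groups share: with only the 2 groups compared in the fit, the adjusted p-values were 0.0414 and 0.014. Without LKO control liver 4 the differences were −2.01 and 1.55, and with both livers left out the second was called (adjusted p = 0.0366) and the first was not (adjusted p = 0.0952). Within livers 1 and 2 the genotype difference was −1.999, and within livers 3 and 4 it was −1.79. The ethanol change in LKO was 1.54 and 1.33 on these sides.

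In WT the ethanol change of Cyp3a11 was −0.70 (adjusted p = 0.536), and without liver 2 it was 0.09 (adjusted p = 0.89), so its direction rested on that liver. The difference between the responses was 2.13 (95% interval 0.41 to 3.86, unadjusted p = 0.018, adjusted p = 0.927) and did not pass the test. Without liver 2 it was 1.34. With livers weighted by their spread it was 1.46 and passed (adjusted p = 0.031), in a fit that called 4.48% of all genes for the interaction. Means ran from WT control through WT ethanol (616.6 ± 497.8) and LKO ethanol to LKO control. Neighbours in that order differed by less than the larger of their SDs, except LKO ethanol and LKO control. Without WT ethanol liver 2 the WT ethanol mean was 795.7 ± 423.4 (n = 3), above that of the WT controls. Cyp3a41a, whose coding sequence is 95.2% identical to that of Cyp3a11, had means of 86.6, 37.9, 51.2 and 34.1 FPKM in WT control, WT ethanol, LKO control and LKO ethanol. Cyp3a44, 94.9% identical, had means of 30.8, 7.84, 153.3 and 94.2, highest in the group where Cyp3a11 was lowest. Reads that fit several of these genes could shift the Cyp3a11 values, and how they were counted is not stated.

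**Figure D2:**
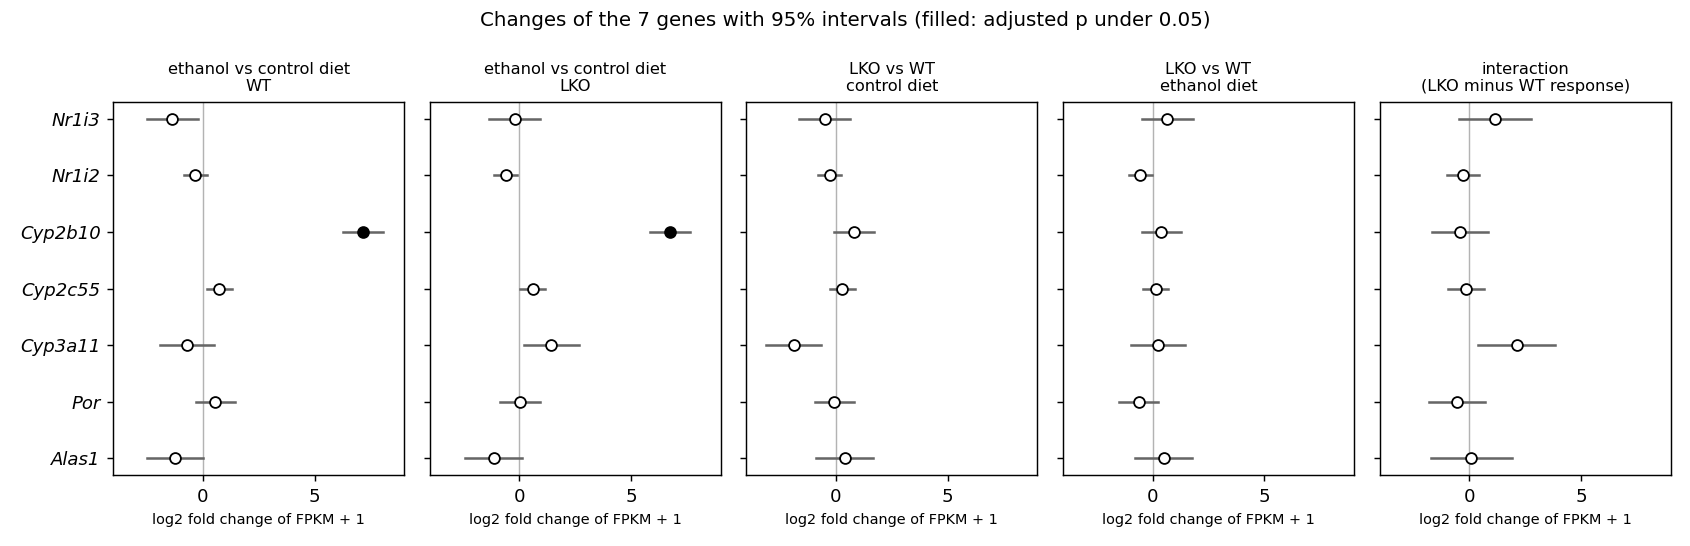
Log2 fold changes of FPKM + 1 (x axis) for the 7 genes (y axis) in the 5 contrasts, with 95% intervals of the fit. Filled points have an adjusted p under 0.05: these are Cyp2b10 on ethanol in WT (7.15) and in LKO (6.75).

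Cyp2c55 is a further P450 induced through CAR and PXR (ENSMUSG00000025002, chromosome 19, 39007019 to 39042693, plus strand, protein-coding). Its level was low in all livers, from 0 to 88 reads. The FPKM was 0, 0.294, 0.329 and 0.120 in WT controls, 1.73, 0, 1.61 and 1.08 in WT on ethanol, 0.286, 0.479, 0.351 and 0.649 in LKO controls, and 0.632, 0.974, 1.97 and 1.32 in LKO on ethanol. A count of 0 allows up to 3 reads, or 0.0789 FPKM in WT control liver 1 and 0.152 in WT ethanol liver 2. Apart from WT ethanol liver 2, each ethanol liver of WT exceeded each WT control, while in LKO the lowest ethanol liver lay just under the highest control. Ethanol came with a mean 5.94-fold higher in WT and 2.77-fold higher in LKO, changes of 0.74 (SE 0.265, adjusted p = 0.127) and 0.60 (adjusted p = 0.495) that were not called. Adding 1 to the values shrinks these changes, and with 0.1 added they were 1.66 and 1.23. The means ran from LKO ethanol (1.22 ± 0.569, SD, n = 4) through WT ethanol (1.10 ± 0.788) and LKO control (0.441 ± 0.160) to WT control (0.186 ± 0.154), and only the last pair differed by more than both its SDs. That order turned on WT ethanol liver 2, without which the WT ethanol mean was 1.47 ± 0.343 (n = 3) and the highest. Without it the change in WT was 1.06 (adjusted p = 0.00498). Since Cyp2c55 entered the tested genes through its ethanol livers, its p-values on ethanol are conditioned on that group being high and are given as a description. Cyp2c55 has no near-identical copy in the annotation: its closest relative, Cyp2c29, is 77.6% identical in coding sequence.

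Por encodes the reductase that hands electrons to all microsomal P450 enzymes (ENSMUSG00000005514, chromosome 5, 135670033 to 135735326, plus strand, protein-coding). It measured 177.0, 162.2, 346.0 and 349.9 FPKM in WT controls and 270.2, 297.7, 438.8 and 481.5 in WT on ethanol. The LKO controls held 140.4, 183.5, 406.8 and 270.6, and under ethanol the LKO livers held 128.8, 181.2, 396.1 and 333.0. In each of the 4 groups livers 1 and 2 lay below livers 3 and 4, whereas all groups overlapped by diet and by genotype. The change on ethanol was 0.57 in WT (SE 0.416, adjusted p = 0.478) and 0.03 in LKO (adjusted p = 1.0), where upper quartile and median of ratios scaling turned it to −0.021 and −0.045. With livers weighted by their spread, the change in WT was 0.95 and passed (adjusted p = 0.0338), in a fit that called 38.4% of all genes. Within livers 1 and 2 these changes were 0.74 and −0.07, and within livers 3 and 4 they were 0.40 and 0.13. On ethanol LKO lay 0.61 below WT (adjusted p = 0.586). Group means ran from WT ethanol (372.0 ± 103.8, SD, n = 4) through LKO ethanol (259.8 ± 125.5) and WT control (258.8 ± 103.2) to LKO control (250.3 ± 117.5), and each neighbouring pair differed by less than the larger of its 2 SDs.

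Alas1 encodes the rate-limiting enzyme of heme synthesis in the liver (ENSMUSG00000032786, chromosome 9, 106233455 to 106248654, minus strand, protein-coding). Its FPKM was 333.0, 162.7, 171.7 and 352.9 in WT controls and 126.7, 24.5, 200.0 and 162.7 in WT on ethanol. LKO controls had 247.9, 278.7, 453.4 and 313.4, and LKO livers on ethanol had 63.3, 97.3, 160.3 and 412.6. The ethanol livers reached lower than the controls in both genotypes, but LKO ethanol liver 4 was the second highest of all 16 and the groups overlapped. In 3 groups, all but the WT controls, livers 3 and 4 lay above livers 1 and 2. The changes were −1.24 in WT (SE 0.602, adjusted p = 0.266) and −1.14 in LKO (adjusted p = 0.623), with 95% intervals of −2.51 to 0.03 and −2.41 to 0.13. Within livers 1 and 2 they were −2.04 and −1.73, and within livers 3 and 4 they were −0.45 and −0.55. With WT ethanol liver 2 left out, the change in WT was −0.58 over all livers and −0.87 for the side of livers 1 and 2. Means ran from LKO control (323.3 ± 90.8, SD, n = 4) through WT control (255.1 ± 101.9) and LKO ethanol (183.4 ± 158.0) to WT ethanol (128.5 ± 75.5), and each neighbouring pair differed by less than the SD of both groups.

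**Figure D3:**
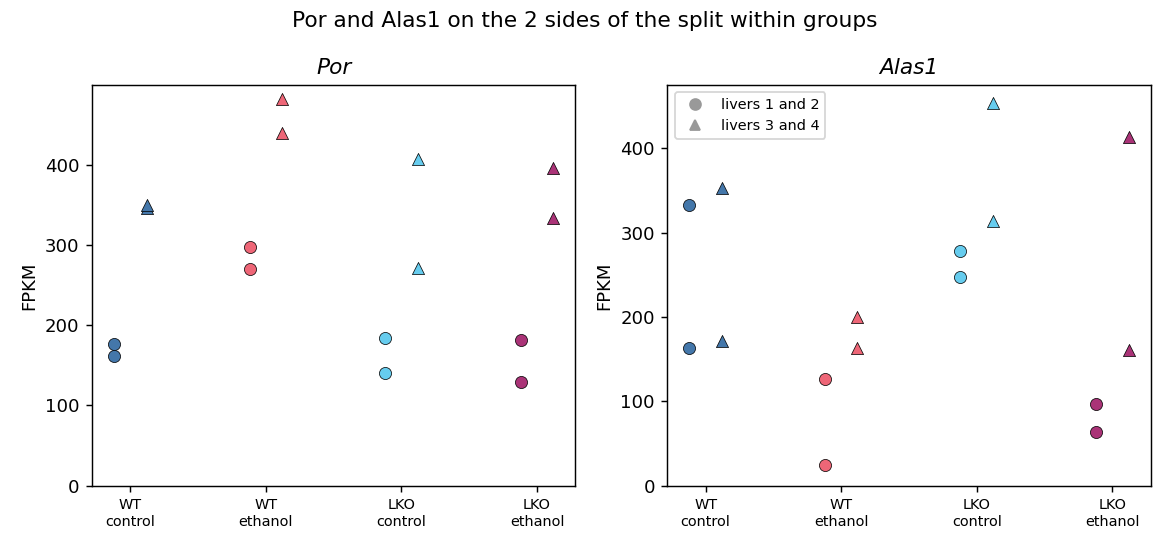
FPKM of Por and Alas1 (y axis) in the 4 groups (x axis), with circles for livers 1 and 2 and triangles for livers 3 and 4. For Por the triangles lie above the circles in all 4 groups, and for Alas1 in 3.

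By comparison the test called 1 of the 7 genes higher on ethanol in WT, against 2.58% of all genes, and 1 higher in LKO, against 0.168%. It called 0 of the 7 between genotypes on either diet and 0 for the interaction. With voom on whole reads recovered from the FPKM values the counts were the same. At an unadjusted p under 0.05 the counts were 3 of 7 in WT and 4 of 7 in LKO, against 19.7% and 9.19% of all genes. Both counts include Cyp2c55, which its high ethanol livers brought into the test, so no excess over all genes is read from them. They were 1 of 7 between genotypes on the control diet (Cyp3a11), on ethanol (Nr1i2) and for the interaction (Cyp3a11), against 3.45%, 11.9% and 3.2%. All ethanol livers lay above all controls for Cyp2b10 in WT, as did 5.62% of all genes, and for Cyp2b10 and Cyp3a11 in LKO, as did 8.15%. All LKO ethanol livers lay below their controls for Nr1i2, as did 4.14% of genes, and all LKO controls lay below the WT controls for Cyp3a11, as did 7.64%. On ethanol the genotypes overlapped for all 7 genes, whereas 2.69% of all genes did not overlap there. The median change of the 7 genes was −0.34 in WT and 0.03 in LKO, beside −0.02 and 0.06 over all genes. Its direction in WT rested on liver 2 of the ethanol group, without which it was 0.09 beside 0.17 over all genes, and without LKO control liver 4 the median in LKO was 0.11.

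FPKM levels of different genes within a liver show what the rise of Cyp2b10 amounts to. Per unit of transcript length, Cyp2b10 held 0.000858 to 0.00676 of the Cyp3a11 level in the WT controls and 0.0135 to 0.0306 in the LKO controls. On ethanol this ratio was 0.778, 4.70, 0.315 and 0.841 in WT livers 1 to 4 and 0.767, 1.15, 1.83 and 0.928 in LKO. Cyp2b10 thus lay far below Cyp3a11 in all 8 control livers and at a similar order of magnitude in the 8 ethanol livers. The ratio did not overlap between genotypes on the control diet, where LKO had both a higher Cyp2b10 mean and a lower Cyp3a11 mean, and it overlapped on ethanol. In the fit to all livers neither gene was called between genotypes on the control diet. Cyp3a11 by itself lay lower in LKO there without overlap, as did 7.64% of all genes. The ratio was not tested or set against other gene pairs, and reads shared with near copies could shift it.

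**Figure D4:**
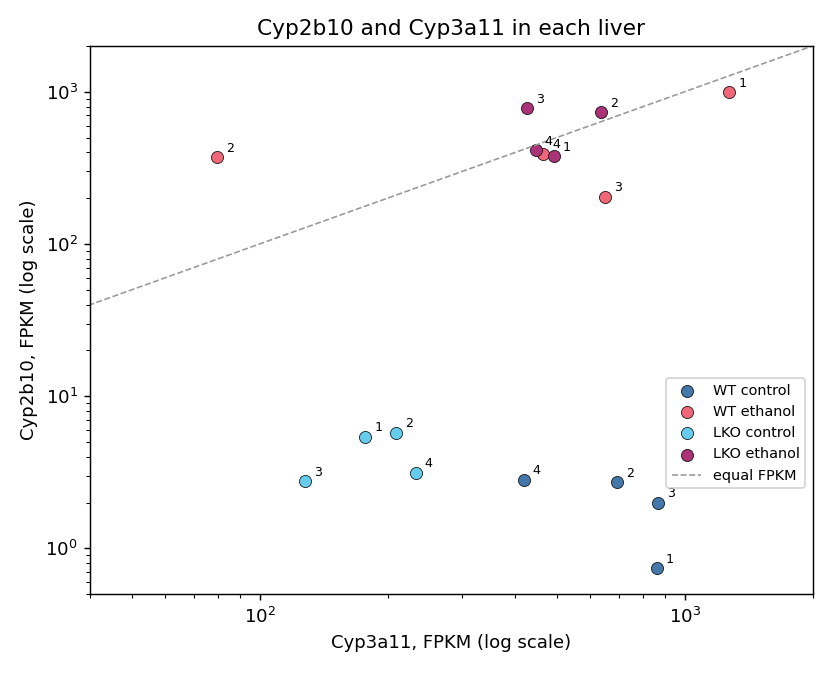
FPKM of Cyp2b10 (y axis, log scale) against FPKM of Cyp3a11 (x axis, log scale) in each of the 16 livers, numbered within their group. The 8 control livers form a band at the bottom with LKO to the left of WT, and the ethanol livers lie at 0.315 to 1.83 times the dashed line of equal FPKM except WT ethanol liver 2, at 4.70 times.

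Whether the other 6 genes followed Cyp2b10 from liver to liver was examined within each diet, over 8 livers of both genotypes, as 12 relations on the log2(FPKM + 1) scale. The adjusted p was under 0.05 for 0 of the 12, and the unadjusted exact permutation p (two-sided) for 1. That 1 was with Cyp3a11 in the control livers. There the genotypes did not overlap in Cyp3a11, so no pooled coefficient is given, and 4 livers a genotype are too few for one within a genotype. In the ethanol livers Pearson r lay between −0.239 (Por) and 0.342 (Cyp3a11), and Spearman rho between −0.31 (Nr1i2) and 0.548 (Cyp2c55). CAR transcript had r = −0.05 with Cyp2b10 there (exact permutation p = 0.911, adjusted p = 0.973, n = 8) and PXR transcript r = −0.059 (exact permutation p = 0.898, adjusted p = 0.973, n = 8). Without the 2 livers farthest from the median of Cyp2b10, WT livers 1 and 3, these were −0.027 and −0.86, so the value for PXR depended on those livers.

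The genes most like each of the 7 were taken from the 3 with the highest Pearson r over the 16 livers, a description that the diet groups shape. For Cyp2b10 they were Rhou (0.95), a small GTPase, and the glutathione transferases Gstt3 (0.95) and Gstm3 (0.938). Those of Cyp2c55 were Sdc1 (0.894), a cell surface proteoglycan, the glutathione transferase Gstm2 (0.883) and the tubulin Tuba8 (0.859). Nr1i3 went with Vegfa (0.965), Il15ra (0.955) and the clock gene Per2 (0.944). Without WT ethanol liver 2 these 3 values were 0.916, 0.892 and 0.852. Alas1 went with Clcn2 (0.917) and Tesk2 (0.908), and Nr1i2 with Eci2 (0.851), A1bg (0.847) and Prdx4 (0.841). Por went with Ctif (0.949), Plbd2 (0.933) and Hgs (0.93), and Cyp3a11 with R3hcc1l (0.895), Zfp667 (0.879) and Sypl (0.871).

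The wider pathway was read from lists of its known genes, chosen with earlier results of these data in view. Of 20 conjugating enzymes, ethanol raised 8 in WT and 3 in LKO, beside 2.58% and 0.168% of all genes, and lowered none in either by this test. Their median change was −0.15 and 0.92 beside −0.02 and 0.06 over all genes. The median in WT turned to 0.94 without WT ethanol liver 2, beside 0.17 over all genes. Those with the smallest adjusted p in WT were Gstm3 (from 9.89 ± 5.43 to 306.8 ± 157.2 FPKM, adjusted p = 0.00118), Gstt3 (from 13.03 ± 2.85 to 61.1 ± 26.9, adjusted p = 0.00585) and Gsta2 (from 14.9 ± 7.14 to 80.9 ± 31.4, adjusted p = 0.0104), all of which attach glutathione to reactive compounds. The same 3 were those called in LKO, where Gstt3 rose by 2.42 (adjusted p = 0.00563), Gstm3 by 4.04 (adjusted p = 0.00749) and Gsta2 by 2.46 (adjusted p = 0.0323). In WT 5 were raised with FPKM scaled to equal sums and 6 with voom, where 2.24% and 3.01% of all genes were called. Under quantile, upper quartile or median of ratios scaling 9 were raised and 1 lowered, beside 8.25%, 6.75% and 6.77% of all genes. LKO had 3 raised under each of these. The counts were 11 and 7 without WT ethanol liver 2, and without LKO control liver 4 they were 6 and 2, fits in which calls over all genes moved as well (9.48% and 3.62%, then 3.40% and 0.0974%). Gsta1, 1 of the 8, reached 1 FPKM in 2 of 8 control livers and in 8 of 8 ethanol livers, so it too was tested only through its high group, and its call is a description. Of 6 transporters, Abcc4, an export pump for conjugates, measured 0.693 ± 0.268 FPKM in WT controls and 5.24 ± 4.03 on ethanol. It reached 1 FPKM in 0 of 8 control livers and in 8 of 8 ethanol livers, so its p (adjusted p = 0.0417) is given as a description, as for Cyp2c55. That p was above the threshold without LKO control liver 4 (1.63 with and without it, adjusted p = 0.0534) and with FPKM scaled to equal sums. In LKO limma and voom called 0 transporters, and 2, Abcc3 and Abcc4, had an unadjusted p under 0.05, beside 9.19% of all genes. Abcc3, another export pump, was called higher in both genotypes without WT ethanol liver 2. With LKO control liver 4 left out as well, Abcc3 was called in WT, and 0 transporters were called in LKO.

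Oxidising and hydrolysing enzymes other than the 7 genes themselves form the next list. Of the 23 tested, ethanol raised 0 and lowered 3 in WT: Cyp2c39 (−1.68, adjusted p = 0.0135), Cyp2c38 (−1.75, adjusted p = 0.0151) and Cyp2c54 (−2.59, adjusted p = 0.0489), members of the Cyp2c family that oxidises fatty acids and drugs. Over all genes 1.59% were called lower there. Cyp2c54 was not called without WT ethanol liver 2 (−2.04, adjusted p = 0.0742) or without LKO control liver 4 (−2.59 as before, adjusted p = 0.0577), nor with voom or FPKM scaled to equal sums. Without WT ethanol liver 2, Akr1b7 was called higher in WT (1.51, adjusted p = 0.0431), and without LKO control liver 4, Cyp3a44 was called lower (−2.12, adjusted p = 0.0324), both named after their values were seen. Akr1b7 reached 1 FPKM in 2 of 8 control livers and 7 of 8 ethanol livers, so its p is a description. In LKO limma and voom called 0, and 3 had an unadjusted p under 0.05, all higher, where 9.19% of all genes had such a p. The median change was −0.86 in WT and 0.59 in LKO, with 4 of 23 above 0 in WT and 20 of 23 in LKO. For the interaction all 23 lay above 0 with a median of 1.55 beside 0.09 over all genes. There limma and voom called 0, and 8 had an unadjusted p under 0.05, beside 3.2% of all genes. Without WT ethanol liver 2 the median in WT was −0.22, that of the interaction was 0.94 with 21 of 23 above 0, and 2 genes were called higher in LKO. These were Cyp2c29, whose mean was 351.9 FPKM on the control diet and 1191 on ethanol (adjusted p = 0.0243), and Cyp3a59, with means of 13.4 and 51.4 (adjusted p = 0.00317), both named after their values were seen. That fit called 3.62% of all genes in LKO. With LKO control liver 4 left out as well, Cyp3a59 alone was called in LKO, beside 1.44% of all genes. Without LKO control liver 4, 15 of 23 lay above 0 in LKO and 22 of 23 for the interaction, and without both livers 15 and 19 did.

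Of 16 heme and electron transfer genes other than Por and Alas1, 1 was called in each genotype and it rose in both. Over all genes 2.58% were called higher in WT and 0.168% in LKO. Hmox1, the stress-induced enzyme that breaks heme down, rose in WT from 10.3 ± 1.41 to 37.5 ± 7.39 FPKM (adjusted p = 0.0213) and in LKO from 10.5 ± 2.597 to 60.1 ± 38.4 (adjusted p = 0.0283). Its call in LKO was lost without LKO control liver 4 (2.15 with it and 2.05 without, adjusted p = 0.1), and its call in WT with FPKM scaled to equal sums. Among 5 growth genes known to respond to CAR activators, Cdkn1a, a cell cycle inhibitor, rose by 3.24 in WT (adjusted p = 0.0107) and 3.19 in LKO (adjusted p = 0.033). The latter call was lost without LKO control liver 4, at the same size of 3.19 (adjusted p = 0.101). Without WT ethanol liver 2, 3 of the 5 were called in WT, as were 9.48% of all genes. Of 6 genes that CAR and PXR are known to repress, 3 fell in WT, where 1.59% of all genes were called lower. These were Cyp7a1, the rate-limiting enzyme of bile acid synthesis (from 86.0 ± 39.7 to 10.2 ± 7.91 FPKM, adjusted p = 0.0139), Cyp8b1, which makes cholic acid (from 135.1 ± 37.9 to 34.2 ± 12.3, adjusted p = 0.0193), and G6pc, the last enzyme of glucose release (from 227.6 ± 129.5 to 50.03 ± 71.3, adjusted p = 0.0471). G6pc was not called without WT ethanol liver 2 (−2.33, adjusted p = 0.0643) or without LKO control liver 4 (−3.29 with and without it, adjusted p = 0.06), nor with voom or FPKM scaled to equal sums. In LKO limma and voom called 0 of the 6, and all 6 lay below 0. An unadjusted p under 0.05 was reached by 1 of them, beside 9.19% of all genes.

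The receptors' partners, chaperones and coregulators had 0 of 18 called by limma or voom in any contrast. With quantile, upper quartile or median of ratios scaling limma called 1 of them, Egfr, lower on ethanol in WT, and likewise Ugt1a6a of the conjugating enzymes and Cyb5b of the electron transfer genes lower in WT and Cyp3a59 higher in LKO, all named after their values were seen. At an unadjusted p under 0.05 there were 3 of the 18 partners on ethanol in WT, 3 in LKO, 2 between genotypes on ethanol, and 0 in the other contrasts, where 19.7%, 9.19%, 11.9%, 3.45% (genotypes on the control diet) and 3.2% (interaction) of all genes had such a p. Between genotypes limma and voom called 0 genes of any of these lists on either diet, and at an unadjusted p under 0.05 the highest count was 10 of 23 oxidising enzymes, all higher in LKO on ethanol, where 11.9% of all genes had such a p. The median of these enzymes there was 1.09, and 0.59 without WT ethanol liver 2. Without LKO control liver 4, limma called Cyp3a44 higher in LKO on ethanol (adjusted p = 0.00761), a gene named after its value was seen. That contrast shares its WT ethanol livers with the ethanol response in WT.

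**Figure D5:**
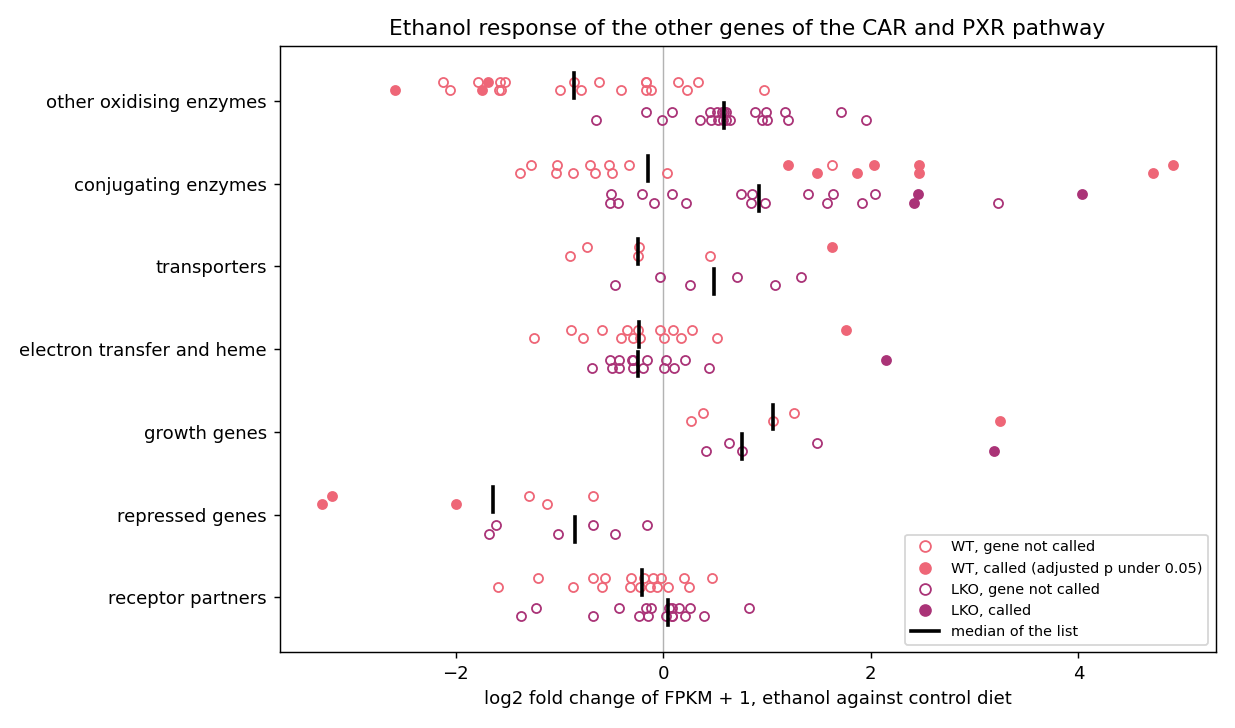
Log2 fold change of FPKM + 1 on ethanol (x axis) for each gene of the 7 lists (y axis), WT above LKO, with filled points called at an adjusted p under 0.05 and a bar at the list's median. The oxidising enzymes have a median of −0.86 in WT and 0.59 in LKO, and the conjugating enzymes hold 8 called points in WT and 3 in LKO.

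Because ZFP36L1 binds AU-rich sequence, the 3′ untranslated regions of the 7 genes were searched for the 7-base motif TATTTAT on the transcript strand of GENCODE M21. It was found in 0 of the 7, and in 28.91% of the 10515 tested genes with such a region. The median length of the region was 1082 bases over these genes. Among the 7 it ran from 369 (Por) to 1983 (Nr1i3), and Nr1i3 alone exceeded that median, so the comparison is not matched for length. Absence of these letters says nothing on other binding sites. The gene length behind each FPKM value, recovered from the values, equalled that of exactly 1 annotated transcript for each of the 7 genes.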

How the data were processed

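Total RNA of mouse liver was sequenced as Illumina libraries, per the labels. The selection of RNA, the strand and the counting of reads that fit several places are not given in the sources used here. The submitters' processing notes name the genome build mm10 and the tools fastp, STAR 2.6.1, HTSeq and DESeq2, with no role or order. The authors deposited 1 FPKM value per gene and library in 16 libraries. Values of FPKM were compared as log2(FPKM + 1) with limma 3.58.1 in R 4.3.3, with 4 group means, on genes that reached 1 FPKM in at least 4 libraries. Whole reads were recovered from the steps of the values, checked on simulated data, and used for depth and for voom as an alternative. Totals ran from 9890475 to 24768569 reads. Limits for a count of 0 cover counting error only, whereas the intervals of the limma fit rest on the spread between libraries. The 7 genes and all lists were chosen with earlier results of these data known. Pathway genes were named by the smallest adjusted p, at most 3 of a list and direction. The relative of highest identity was taken by coding sequence of GENCODE M21 on GRCm38, in place of protein sequence, and promoters are from RefSeq on GRCm38.p6. Alternatives changed the pseudocount, filter, scaling, weights, groups in the fit and libraries, or added a term for the number in the library's title or for the split of libraries 1 and 2 from 3 and 4. Of the 3 genes most like Alas1, 1 is not reported here.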

Additional observations from a re-analysis of the deposited data

How the results depend on the processing

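Cyp2b10 was called on ethanol in both genotypes under all alternatives run. The number of the 7 genes called, 1 on ethanol in WT, 1 in LKO and 0 in the other contrasts, was 2 in WT with quantile normalization (8.25% of all genes called). With array weights it was 3 in WT, 4 in LKO, 1 between genotypes on the control diet, 2 on ethanol and 1 for the interaction, beside 38.4%, 7.69%, 2.30%, 30.7% and 4.48% of all genes. With only the 2 groups compared it was 2 in LKO and 1 between genotypes on the control diet (2.19% and 0.115% of all genes). With a side term and without WT ethanol liver 2 it was 2, 4, 1 and 1 in the first 4 contrasts, beside 19.7%, 10.7%, 0.0797% and 1.58% of all genes, and without that liver and LKO control liver 4, an alternative added after seeing the data, it was 2 in WT and 2 in LKO (8.39% and 1.44%). The counts of 2 or more in WT, and those in LKO with array weights and with the side term, include Cyp2c55, which was tested only because its ethanol livers are high, so they are not read against all genes. With 1 liver left out at a time the number ranged from 1 to 2 in WT, 1 to 2 in LKO, 0 to 1 between genotypes on the control diet and 0 to 0 in the other 2 contrasts. The number of relations with Cyp2b10 at an adjusted p under 0.05 was 0, was 1 without the 2 livers farthest from the median, and ranged from 0 to 1 with 1 liver left out.

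Of 1038 log2 changes of the 7 genes under alternatives, 973 kept direction and side of the threshold, 23 newly passed it, 0 lost it and 42 turned direction. Cyp3a11 on ethanol in WT was 0.17 with the side term and without WT ethanol liver 2 and 0.093 without both livers. Under array weights, the side term without WT ethanol liver 2, and without both livers, the genotype difference on ethanol was −0.165, −0.152 and −0.179 for Cyp2c55, −0.282, −0.051 and −0.171 for Alas1, and −0.405, −0.633 and −0.557 for Cyp3a11. The interaction of Alas1 was −0.564, −0.444 and −0.566 in the same order, −0.005 with quantile normalization and −0.006 with median of ratios scaling, and that of Cyp2b10 was 0.085 with array weights. Por on ethanol in LKO was −0.021 with upper quartile and −0.045 with median of ratios scaling, which put the control genotypes at 0.061. With 1 liver left out, values ranged from −1.236 to 0.093 for Cyp3a11 in WT, −0.219 to 0.318 for Por in LKO, −0.575 to 0.065 for Nr1i3 in LKO and −0.344 to 0.165 for Por between genotypes on the control diet. On ethanol the genotype difference ranged from −0.179 to 0.303 for Cyp2c55, −0.171 to 0.88 for Alas1 and −0.557 to 0.772 for Cyp3a11. The interaction ranged from −0.464 to 0.019 for Cyp2c55, −0.74 to 0.019 for Cyp2b10 and −0.564 to 0.487 for Alas1. The cause was not tested.

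Over all genes, ethanol in WT called 472 (61.9% higher), against 932, 763, 765 and 253 with quantile, upper quartile, median of ratios and equal sums scaling (50.4%, 47.6%, 49.5% and 52.6% higher), 283 with no filter, 776 with the side term, 4334 with array weights and 58 with only the 2 groups compared. Ethanol in LKO called 48, against 105, 103, 122 and 25 with these scalings, 18 with no filter, 95 with the side term, 869 with array weights and 248 with only the 2 groups. With 1 liver left out these counts ranged from 146 (without WT control liver 2) to 1071 (without WT ethanol liver 2) in WT, from 6 (without LKO ethanol liver 3) to 409 (without WT ethanol liver 2) in LKO, and from 1 (without LKO ethanol liver 1) to 387 (without WT ethanol liver 1) between genotypes on ethanol, where the fit to all livers called 9. Cyp2c55 has no value under the filter of 1 FPKM in 8 libraries. No paired analysis was run because the labels state no pairing and give libraries of different groups no shared number. The side term rests on a split taken from the data. Counts of 0 to 88 reads limit Cyp2c55, and 4 livers a group limit all 7 genes.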

Other observations

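Among the 14 Cyp2c relatives of Cyp2c55 in the annotation, several that belong to none of the lists had lower means on ethanol in both genotypes, given here as values with no test. Cyp2c69 had group means of 393.4 FPKM in WT controls, 63.3 in WT on ethanol, 295.3 in LKO controls and 109.7 in LKO on ethanol. Cyp2c23, an arachidonic acid epoxygenase, had 117.4, 34.9, 138.9 and 35.9 in the same order. Cyp2c70, the enzyme that makes muricholic acids in mice, had 274.5, 272.9, 325.2 and 305.3. The highest group mean among the 14 was that of Cyp2c29, at 1191 in LKO on ethanol.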
